A study of Mus musculus with 18 samples.

Results

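The genes described are those of oxidative phosphorylation, 66 genes read by 74 probes of a mouse BeadArray that holds 46657 probes. A probe was a member if its target was named as a mitochondrial DNA transcript, or if its target carried the Entrez number of a mouse gene whose symbol starts with Nduf, Sdh, Uqcr, Cox4 to Cox8 or Atp5. The rule gave 13 mitochondrial-encoded probes, 1 for each protein the mitochondrial genome encodes, and 61 nuclear-encoded probes for 53 genes. It used no measured value, and the same target names identify 8115 genes on the array in all. Of the 74 probes, 66 passed the filter on low signals and were tested: 12 mitochondrial-encoded probes and 54 nuclear-encoded probes for 49 genes. The other 8 were above background on 0 of 18 arrays: mt-ND6, Ndufab1, Ndufaf6, Sdha, Cox7b and the dimmer probes of Ndufc1, Sdhc and Atp5md.

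The study measured total RNA of enriched male germ cells from 2 mouse models of Down syndrome and from diploid littermates, and its title asks what aneuploidy does to meiosis. The groups were Ts65Dn, Ts1Cje and WT, each with 3 biological replicates, on 1 array each, at both of the ages 16-17 and 19-20 dpp (days after birth). Ts65Dn and Ts1Cje mice carry an extra copy of overlapping segments of chromosome 16, of which the Ts65Dn segment is the longer. The labels do not say of which model the WT mice were littermates, and the same WT arrays served both models, so the comparisons of the models with WT share their controls. Germ cells of these ages come from the first wave of spermatogenesis, in which spermatocytes are followed by the first round spermatids.

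In oxidative phosphorylation, electrons from food pass along complexes I to IV of the inner mitochondrial membrane while protons are pumped out, and complex V, the ATP synthase, makes ATP from their return. The subunits come from both genomes of the cell: the core subunits of complexes I, III, IV and V that the mitochondrial genome encodes are read as long transcripts from a circular DNA, and nuclear genes on many chromosomes supply all other subunits, the whole of complex II and the assembly factors. Germ cells change their fuel as they mature, and spermatocytes and spermatids use lactate that Sertoli cells supply. The question here was whether both sets of genes moved together with age and in the trisomic models.

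Nuclear genes of the chain are known as targets of NRF1 and of the ETS factor GABP. RefSeq promoters (GRCm38.p6) matched 45 of the 52 nuclear members other than the pseudogene Ndufs5-ps. The NRF1 core motif, whose letters are the capitals in the sequences below and which reads the same on both strands, stood in the 250 bases before the start of 5 of the 45 (11.1%), against 0.877% of the 27025 genes of the table. The ETS motif CCGGAAGT, or ACTTCCGG on the other strand, stood in 3 of 45 (6.67%), against 3.23% of all genes. Either stood in 8 of 45 (17.8%), against 4.02% of all genes. The genes of the table were not limited by gene type or expression, so the sets are unlike, and the shares were not tested. Below are the 120 bases before the start of 4 of the members with the NRF1 motif, among them Atp5g2, the nuclear member that differed between Ts65Dn and WT, and of Cox8a, a nuclear member that fell strongly with age and holds neither motif; capitals mark the NRF1 motif, and a match describes the letters only.
Atp5g2 (chr15:102671048-102671167, minus strand): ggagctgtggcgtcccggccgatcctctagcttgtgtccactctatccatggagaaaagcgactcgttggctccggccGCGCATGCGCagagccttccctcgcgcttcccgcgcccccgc
Ndufaf4 (chr4:24897963-24898082, plus strand): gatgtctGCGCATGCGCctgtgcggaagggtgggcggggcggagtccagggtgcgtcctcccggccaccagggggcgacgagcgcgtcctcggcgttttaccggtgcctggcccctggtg
Ndufa11 (chr17:56717642-56717761, plus strand): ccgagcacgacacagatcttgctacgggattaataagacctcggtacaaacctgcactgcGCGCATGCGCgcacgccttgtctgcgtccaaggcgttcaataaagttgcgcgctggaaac
Atp5k (chr5:108434400-108434519, minus strand): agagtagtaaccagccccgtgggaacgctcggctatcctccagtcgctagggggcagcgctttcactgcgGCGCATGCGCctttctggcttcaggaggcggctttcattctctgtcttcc
Cox8a (chr19:7217617-7217736, minus strand): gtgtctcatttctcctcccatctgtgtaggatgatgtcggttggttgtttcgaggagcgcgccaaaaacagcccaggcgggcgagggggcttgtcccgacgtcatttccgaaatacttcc
The motif began 42 bases before the start of Atp5g2, 113 before Ndufaf4, 60 before Ndufa11 and 50 before Atp5k. Of the 5 members with the NRF1 motif, Atp5g2, Ndufaf4 and Ndufa11 fell with age in at least 1 genotype (values follow), while Atp5k and both probes of Cox6a1 passed in none; Atp5k changed by -0.32 in Ts65Dn, -0.36 in Ts1Cje and 0.36 in WT. Cox8a, whose stretch holds neither motif, fell in Ts1Cje and WT.

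The arrays were of like depth: between 17102 and 19784 probes were above background on each, and the median signal was between 179 and 225 units. Replicates of a group correlated between 0.925 and 0.988 over the tested probes, with the lowest value in Ts1Cje at 19-20 dpp, where replicate 1 stood apart. Of the germ cell markers, round spermatid genes were well measured (8 of 16 genes tested), and the 4 tested genes of Sertoli cells, which are not germ cells, summed to between 42533 and 77186 units on every array. Round spermatid markers summed to between 11425 and 23846 signal units on the Ts65Dn arrays at 19-20 dpp, between 27771 and 69351 on the Ts1Cje arrays, and between 30295 and 52308 on the WT arrays. In bulk RNA such as this, fewer cells of a type and less RNA per cell cannot be told apart. Each p-value measures only the spread between these 18 samples.

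Mitochondrial-encoded transcripts were among the brightest on the arrays, and 3 of them lay among the 50 brightest of the 21337 probes tested. Median signals over the 18 arrays were 50653 units for mt-COXI, a catalytic subunit of complex IV, 47927 for mt-ND4 of complex I and 45432 for mt-CytB, the cytochrome b of complex III. Next came mt-ND1 at 43140, mt-COXIII at 42688, mt-COXII at 34022, mt-ATP6 at 31615, mt-ATP8 at 30413 and mt-ND2 at 26921. The subunits of complex I mt-ND5, mt-ND4L and mt-ND3 were dimmer, at 13298, 2491 and 461 units, and mt-ND6, which is read from the other strand of the mitochondrial DNA than the rest, was at 160 and above background on no array. Each probe binds its own target with its own strength, so these signals do not order the transcripts by amount.

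With age, 6 of the 12 mitochondrial-encoded probes fell in WT germ cells and 5 fell in Ts1Cje germ cells, while 0 of 12 passed the test in Ts65Dn germ cells, where 0 were at an unadjusted p under 0.05; none rose. A probe passed where limma's adjusted p over all 21337 tested probes was under 0.05, and a change is the mean log2 signal at 19-20 dpp minus that at 16-17 dpp, with its standard error (SE). These shares are read against the background, since 28.2% of all tested probes fell in WT and 27.3% in Ts1Cje; in Ts65Dn 2.54% fell and 6.17% rose. The median change of the 12 was 0.05 in Ts65Dn, -0.35 in Ts1Cje and -0.35 in WT, beside medians over all tested probes of -0.09, -0.21 and -0.23 in the same order. With arrays scaled by their medians and not by quantiles, it was 0.07, -0.29 and -0.21, beside -0.06, -0.24 and -0.21 over all tested probes. A fall beyond that of all tested probes thus depended on the scaling, and in WT was -0.006 under median scaling, against -0.12. Arrays whose header numbers fall in 3 runs of 6, each with 1 array of every group, gave medians within runs 1, 2 and 3 of 0.06, 0.14 and -0.18 in Ts65Dn, -0.69, -0.21 and -0.14 in Ts1Cje, and -0.41, -0.38 and -0.26 in WT.

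Stage markers moved with age in all 3 genotypes. Of all tested probes, 6.17% rose in Ts65Dn, 18% in Ts1Cje and 18.5% in WT, and the shares that fell are given above. Of 9 round spermatid probes 4 rose in Ts65Dn, 8 in Ts1Cje and 7 in WT, and the 3 tested pachytene to diplotene probes rose in each. Of 4 Sertoli probes 0 fell in Ts65Dn, 0 in Ts1Cje and 3 in WT; of 4 spermatogonial probes 0 fell in Ts65Dn, 4 in Ts1Cje and 2 in WT; and of 6 Leydig cell probes 4 fell in Ts65Dn, with a median change of -2.01, and 0 in Ts1Cje and WT. Of 5 meiotic prophase probes, which read only Smc1a, Smc3 and Syce2, 0 fell in Ts65Dn, 4 in Ts1Cje and 3 in WT. On the WT arrays at 19-20 dpp 3 of these 5 were above background on none. Of 6 peritubular probes 0 passed in Ts65Dn, 5 fell in Ts1Cje and 0 passed in WT. Of 5 macrophage probes 2 fell in Ts65Dn and 0 passed in Ts1Cje or WT. Of 2 endothelial probes 0 fell in Ts65Dn, 2 in Ts1Cje and 1 in WT, and of 2 red cell probes none passed. These counts were not compared between genotypes, and the part of these shifts in the age changes of the members was not tested.

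mt-ND4L had the largest mitochondrial-encoded change in Ts1Cje. Its log2 signals in Ts1Cje were 10.09, 10.84 and 10.23 at 19-20 dpp, against 11.66, 11.66 and 11.40 at 16-17 dpp. In WT they were 10.87, 10.42 and 10.22 at 19-20 dpp, against 11.17, 11.33 and 11.47 at 16-17 dpp. The ages did not overlap in either genotype, nor did those of 48.4% of all tested probes in Ts1Cje and 59.7% in WT. The change was -1.19 (SE 0.21, limma adjusted p = 0.000848) in Ts1Cje and -0.82 (SE 0.21, adjusted p = 0.00734) in WT. In Ts65Dn the signals were 11.33, 11.34 and 11.21 at 19-20 dpp, against 11.85, 11.45 and 11.43 at 16-17 dpp, also with no overlap between ages, as for 48.1% of all tested probes, and the change of -0.28 did not pass (SE 0.21, adjusted p = 0.373).

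mt-ND5 had log2 signals in WT of 13.26, 13.19 and 13.10 at 19-20 dpp, against 13.83, 13.90 and 14.14 at 16-17 dpp. Those in Ts1Cje were 12.87, 13.44 and 13.69 at 19-20 dpp, against 13.98, 14.21 and 13.83 at 16-17 dpp. In both, every array at 19-20 dpp lay below every array at 16-17 dpp. The changes were -0.68 (SE 0.19, limma adjusted p = 0.00978) in Ts1Cje and -0.77 (SE 0.19, adjusted p = 0.00585) in WT. In Ts65Dn the signals were 13.92, 14.24 and 13.95 at 19-20 dpp, against 14.05, 13.97 and 13.86 at 16-17 dpp, and the ages overlapped (change 0.07, SE 0.19, adjusted p = 0.816).

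mt-ND3, a small subunit of the membrane arm of complex I, fell by 1.07 in Ts1Cje (SE 0.26, limma adjusted p = 0.00460) and by 0.86 in WT (SE 0.26, adjusted p = 0.0158). mt-ND2 averaged 14.28 ± 0.03 at 19-20 dpp and 14.96 ± 0.08 at 16-17 dpp in WT (SD, n = 3 each), and its changes were -0.50 (SE 0.18, adjusted p = 0.0375) in Ts1Cje and -0.67 (SE 0.18, adjusted p = 0.0102) in WT. mt-ATP8, a small subunit of the ATP synthase membrane sector, fell by 0.42 in Ts1Cje (adjusted p = 0.0272) and by 0.45 in WT (adjusted p = 0.0208). mt-COXII, which receives electrons from cytochrome c, averaged 14.73 ± 0.02 at 19-20 dpp and 15.20 ± 0.12 at 16-17 dpp in WT, a change of -0.46 (SE 0.17, adjusted p = 0.0371), and its change of -0.38 in Ts1Cje did not pass (adjusted p = 0.0768). Without Ts1Cje 19-20 dpp replicate 1 the Ts1Cje changes were -0.24 for mt-ND2 and -0.24 for mt-ATP8, neither past the threshold, and -0.45 for mt-ND5, which passed. In Ts65Dn the changes of these 4 were -0.30 for mt-ND3, -0.15 for mt-ND2, 0.04 for mt-ATP8 and 0.09 for mt-COXII.

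**Figure D1:**
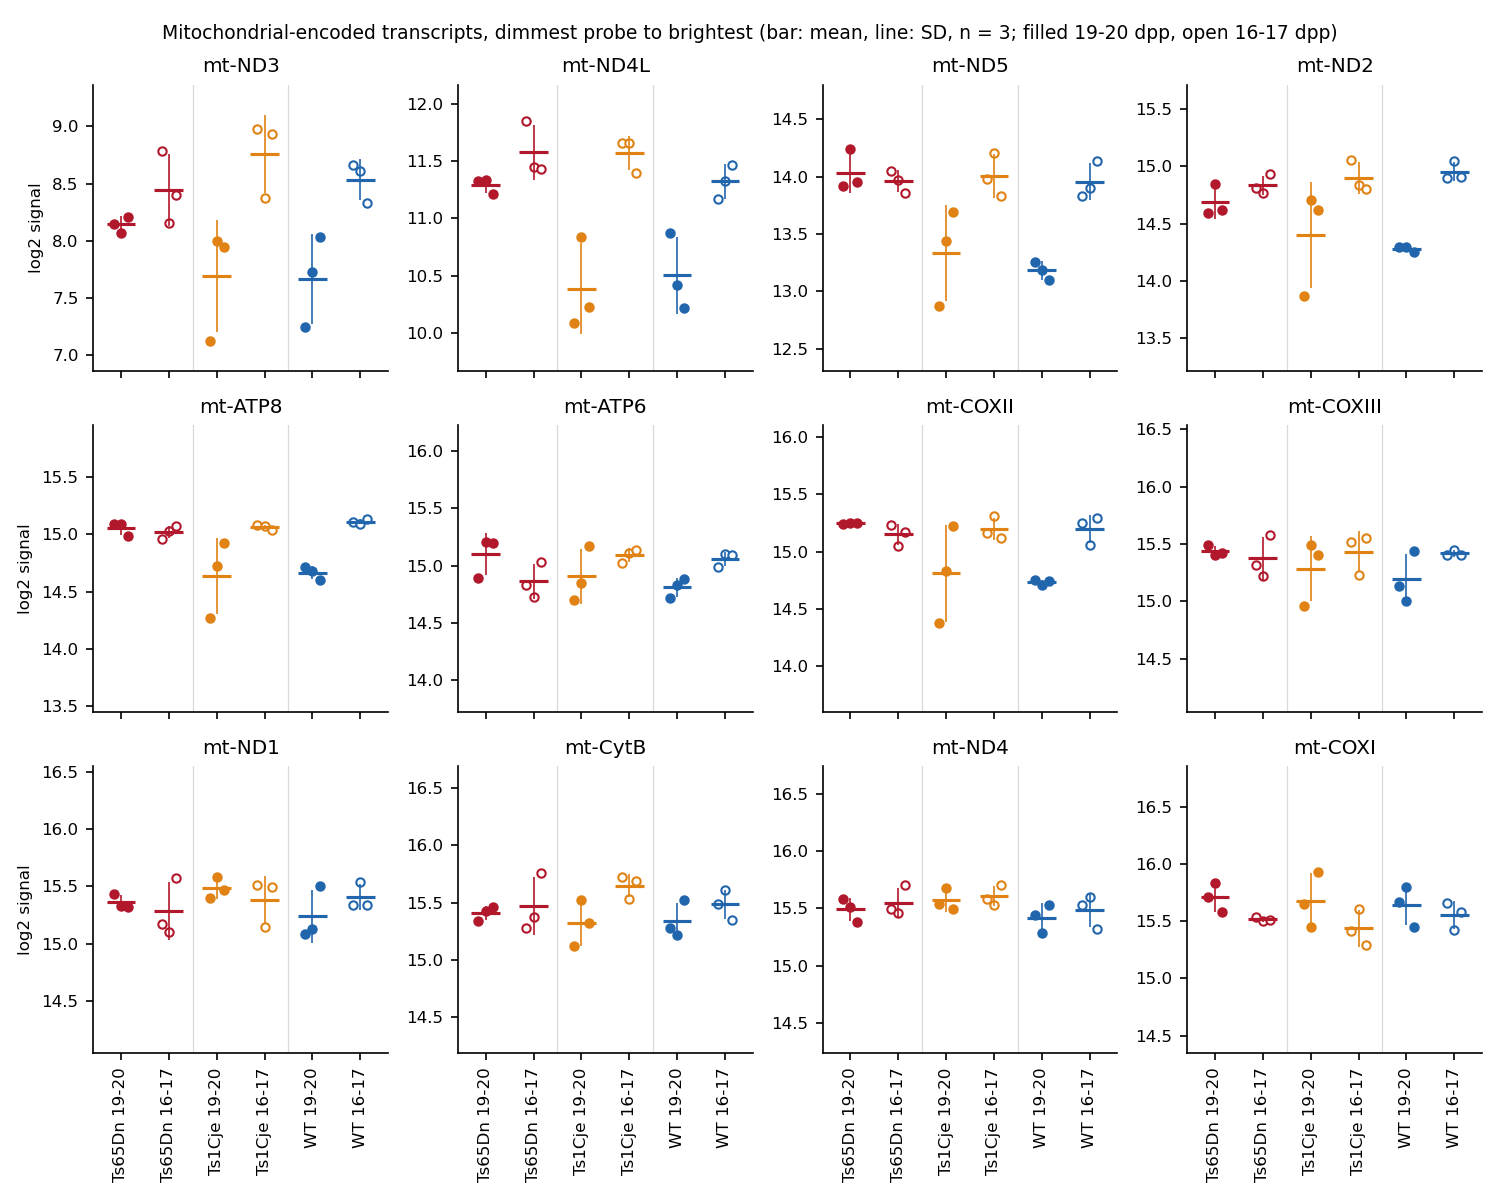
Normalised log2 signal (vertical axis) of each of the 12 tested mitochondrial-encoded probes on the 18 arrays, by genotype and age, with a point for each array and a bar for the group mean. mt-ND4L and mt-ND5 lay lower at 19-20 dpp than at 16-17 dpp in Ts1Cje and WT, with no overlap between ages; in Ts65Dn mt-ND4L also did not overlap between ages and mt-ND5 did. mt-COXI, mt-ND4 and mt-ND1 overlapped between ages in Ts1Cje and WT.

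The 6 mitochondrial-encoded probes that passed in no genotype were mt-COXI, mt-ND4, mt-CytB, mt-ND1, mt-COXIII and mt-ATP6. mt-COXI averaged 15.68 ± 0.24 at 19-20 dpp and 15.44 ± 0.16 at 16-17 dpp in Ts1Cje, and 15.64 ± 0.18 at 19-20 dpp and 15.56 ± 0.12 at 16-17 dpp in WT (SD, n = 3 each); the ages overlapped. mt-CytB changed by -0.06 in Ts65Dn, -0.32 in Ts1Cje and -0.14 in WT, and mt-ND4 by -0.06, -0.03 and -0.07 in the same order. They were bright probes: their median signals were between 31615 and 50653 units, against 461 to 34022 units for the 6 that fell in WT. Spearman's rho between change and median signal over the 12 probes was 0.483 in Ts65Dn, 0.923 in Ts1Cje and 0.979 in WT, a description with no test, since the 12 share arrays. The highest signal on each array was between 59788 and 65713 units, so the brightest probes lay near the top of the scale, and the part of this ceiling in their small changes was not tested.

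**Figure D2:**
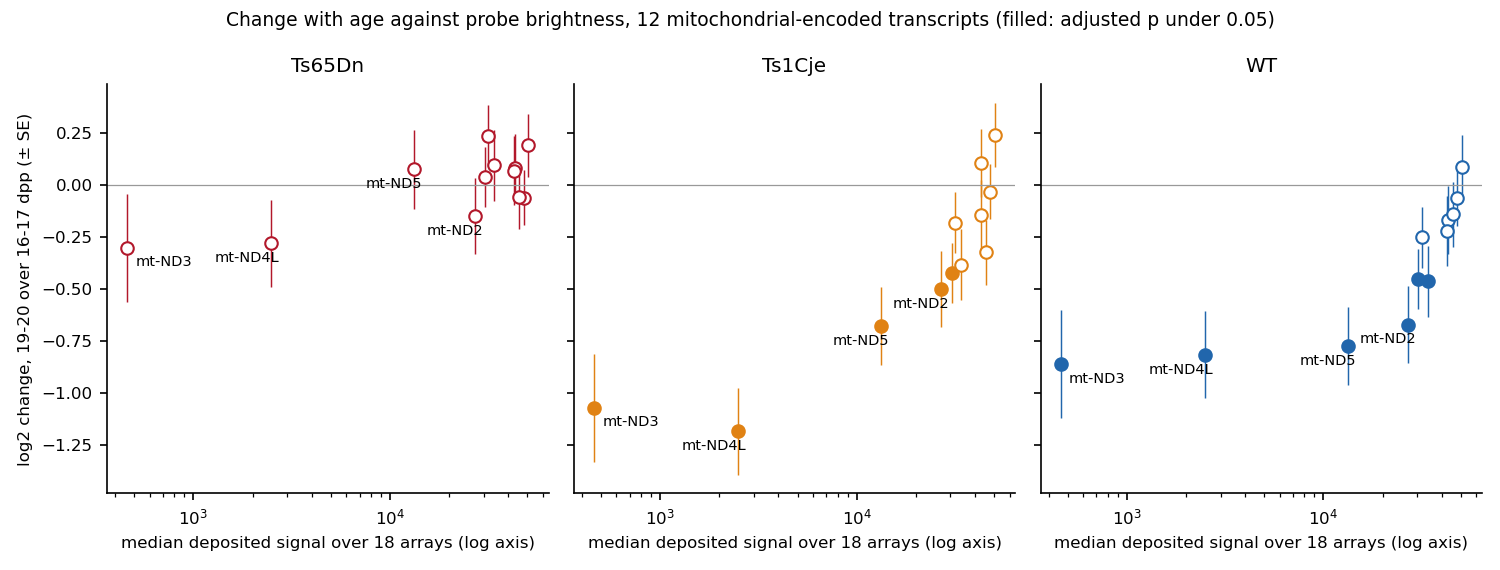
Change with age (19-20 dpp minus 16-17 dpp, log2, vertical axis) of the 12 mitochondrial-encoded probes against their median signal over 18 arrays (horizontal log axis, intensity units), in Ts65Dn, Ts1Cje and WT; lines are standard errors. In WT the probes that fell lay between 461 and 34022 units and the brightest, at 50653 units, changed by 0.09.

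Nuclear-encoded members moved in both directions. In Ts65Dn 1 of 54 rose and 1 fell, in Ts1Cje 4 rose and 12 fell, and in WT 3 rose and 14 fell. The share called was 3.70% of the nuclear members in Ts65Dn, 29.6% in Ts1Cje and 31.5% in WT, below that of all tested probes in each (8.71%, 45.3% and 46.7%). The median change was -0.06 in Ts65Dn, -0.11 in Ts1Cje and 0.00 in WT, beside -0.09, -0.21 and -0.23 over all tested probes. Of the nuclear probes, 12 changed in the same direction in Ts1Cje and WT, 1 of them (Atp5md) also fell in Ts65Dn, and 33 passed in none.

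Of the 9 nuclear probes of the ATP synthase 1 fell in Ts65Dn, 4 fell in Ts1Cje and 6 fell in WT, and none rose. The shares that fell were 11.1%, 44.4% and 66.7% in the same order, beside 2.54%, 27.3% and 28.2% of all tested probes. Median changes were -0.22, -0.36 and -0.41, beside -0.09, -0.21 and -0.23 over all tested probes. Atp5g2 encodes the c subunit of the rotor ring, as does Atp5g1. Its log2 signals in WT were 11.53, 11.50 and 11.66 at 19-20 dpp, against 12.25, 12.81 and 12.43 at 16-17 dpp. In Ts1Cje they were 11.38, 11.95 and 12.12 at 19-20 dpp, against 12.31, 12.63 and 12.91 at 16-17 dpp. Neither pair of ages overlapped, and Atp5g2 fell by 0.80 in Ts1Cje (SE 0.23, limma adjusted p = 0.0102) and by 0.93 in WT (SE 0.23, adjusted p = 0.00561). In Ts65Dn the signals were 12.09, 12.68 and 12.57 at 19-20 dpp, against 12.66, 13.01 and 12.78 at 16-17 dpp (change -0.37, adjusted p = 0.275). Atp5g1 fell by 0.55 in Ts1Cje and by 0.67 in WT.

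Atp5md, a small subunit of the ATP synthase dimer, was dim: in WT its brighter probe was above background on all 3 arrays at 16-17 dpp and on none at 19-20 dpp. It averaged 6.37 ± 0.22 at 19-20 dpp and 7.45 ± 0.50 at 16-17 dpp in WT, so it was at least 1.72-fold lower at 19-20 dpp (limma adjusted p = 0.0142). Its change was -1.38 (SE 0.32, adjusted p = 0.00351) in Ts1Cje, where 1 of 3 arrays at 19-20 dpp was above background, and -1.07 (SE 0.32, adjusted p = 0.0498) in Ts65Dn. The WT list of ATP synthase members that fell also held Atp5mpl, Atp5l and Atp5c1, the last of which encodes the central stalk gamma subunit.

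Complex IV had 12 nuclear-encoded probes, of which 0 passed in Ts65Dn, 5 fell in Ts1Cje and 4 fell in WT. In WT 33.3% thus fell, near the 28.2% of all tested probes, and in Ts1Cje 41.7%, beside 27.3%. Its median changes were -0.13 in Ts65Dn, -0.53 in Ts1Cje and -0.22 in WT, beside -0.09, -0.21 and -0.23 over all tested probes. Without Cox7a2l, whose arrays lay at separate levels within groups, they were -0.082, -0.41 and -0.24. Cox8a, a small subunit found across tissues, had log2 signals in WT of 12.60, 12.84 and 13.12 at 19-20 dpp, against 13.71, 14.00 and 14.29 at 16-17 dpp. The ages were well apart, and Cox8a fell by 1.20 in Ts1Cje (SE 0.27, limma adjusted p = 0.00316) and by 1.15 in WT (SE 0.27, adjusted p = 0.00501). In Ts65Dn it read 13.18, 13.59 and 13.74 at 19-20 dpp, against 14.19, 14.18 and 14.08 at 16-17 dpp, also with no overlap, but the change of -0.64 did not pass (adjusted p = 0.128). Ndufa4, named for complex I but a subunit of complex IV, fell by 0.89 in Ts1Cje and by 0.84 in WT. Both probes of Cox6b1, on the intermembrane side of the complex, fell: the brighter by 0.88 in Ts1Cje and by 0.79 in WT, and the dimmer by 0.83 in Ts1Cje and by 0.69 in WT. Without Ts1Cje 19-20 dpp replicate 1 the Ts1Cje changes were -0.50 for Ndufa4, -0.56 for the brighter and -0.51 for the dimmer probe of Cox6b1, of which the brighter Cox6b1 probe alone passed. Cox7a1, the isoform of heart and skeletal muscle, changed by -1.24 in Ts65Dn, -0.64 in Ts1Cje and -1.09 in WT, with none past the test. Among the isoforms of restricted tissues looked for, it alone had a probe named by an Entrez number, and probes under other target names were not searched.

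Complex I had more nuclear members above 0 than below it. Of 20 nuclear subunit probes 0 passed in Ts65Dn, 2 rose and 2 fell in Ts1Cje, and 2 rose and 1 fell in WT. The share called was 20% in Ts1Cje and 15% in WT, beside 45.3% and 46.7% of all tested probes. Above 0 lay 17 of the 20 in WT and 12 of 20 in each model. Of all 21337 tested probes 8954 lay above 0 in Ts65Dn, 8481 in Ts1Cje and 8202 in WT. Ndufc1, an accessory subunit of the membrane arm, averaged 15.19 ± 0.21 at 19-20 dpp and 14.51 ± 0.45 at 16-17 dpp in Ts1Cje. In WT it averaged 15.28 ± 0.04 at 19-20 dpp and 14.59 ± 0.19 at 16-17 dpp (SD, n = 3 each). It rose by 0.69 in Ts1Cje (limma adjusted p = 0.0114) and by 0.70 in WT (adjusted p = 0.0117), on its brighter probe. Ndufb5 rose by 0.77 in WT and Ndufb7 by 0.89 in Ts1Cje, both accessory subunits of the membrane arm. Ndufa10 fell by 0.49 in Ts1Cje and by 0.57 in WT, and Ndufa11 fell by 0.47 in Ts1Cje. In Ts1Cje the change of Ndufc1 was 0.45 without 16-17 dpp replicate 2, and that of Ndufa10 was -0.30 without 19-20 dpp replicate 1, neither past the threshold.

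Complex III had 1 of 4 nuclear probes (25%) past the test in Ts1Cje and in WT, beside 45.3% and 46.7% of all tested probes. This was its core protein Uqcrc1, which rose by 0.37 in Ts1Cje and by 0.48 in WT. The Ts1Cje call was lost in 16 of 28 alternatives, and without Ts1Cje 16-17 dpp replicate 2 the change was 0.24 (limma adjusted p = 0.215). Complex II, which is wholly nuclear-encoded, had 2 probes, of which Sdhc, a membrane anchor, fell by 0.41 in WT. Among 6 assembly factors the largest rise was that of Ndufaf3, which acts early in the assembly of complex I. Ndufaf3 read 15.53, 15.02 and 15.19 at 19-20 dpp, against 13.42, 13.33 and 13.99 at 16-17 dpp in Ts65Dn, and rose by 1.67 (SE 0.48, limma adjusted p = 0.0446). In Ts1Cje it read 14.90, 15.23 and 15.34 at 19-20 dpp, against a wide 14.77, 12.30 and 14.20 at 16-17 dpp, and rose by 1.40 (SE 0.48, adjusted p = 0.0266). That rise leaned on the low replicate 2 at 16-17 dpp: without it the change was 0.67 (adjusted p = 0.140), and the call was lost in 5 of 28 alternatives. In WT its change of 1.19 missed the threshold (adjusted p = 0.0513). Ndufaf4, another complex I assembly factor, moved the other way and fell by 1.06 in Ts1Cje and by 0.77 in WT, and Sdhaf3, a complex II assembly factor, fell by 0.89 in WT.

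**Figure D3:**
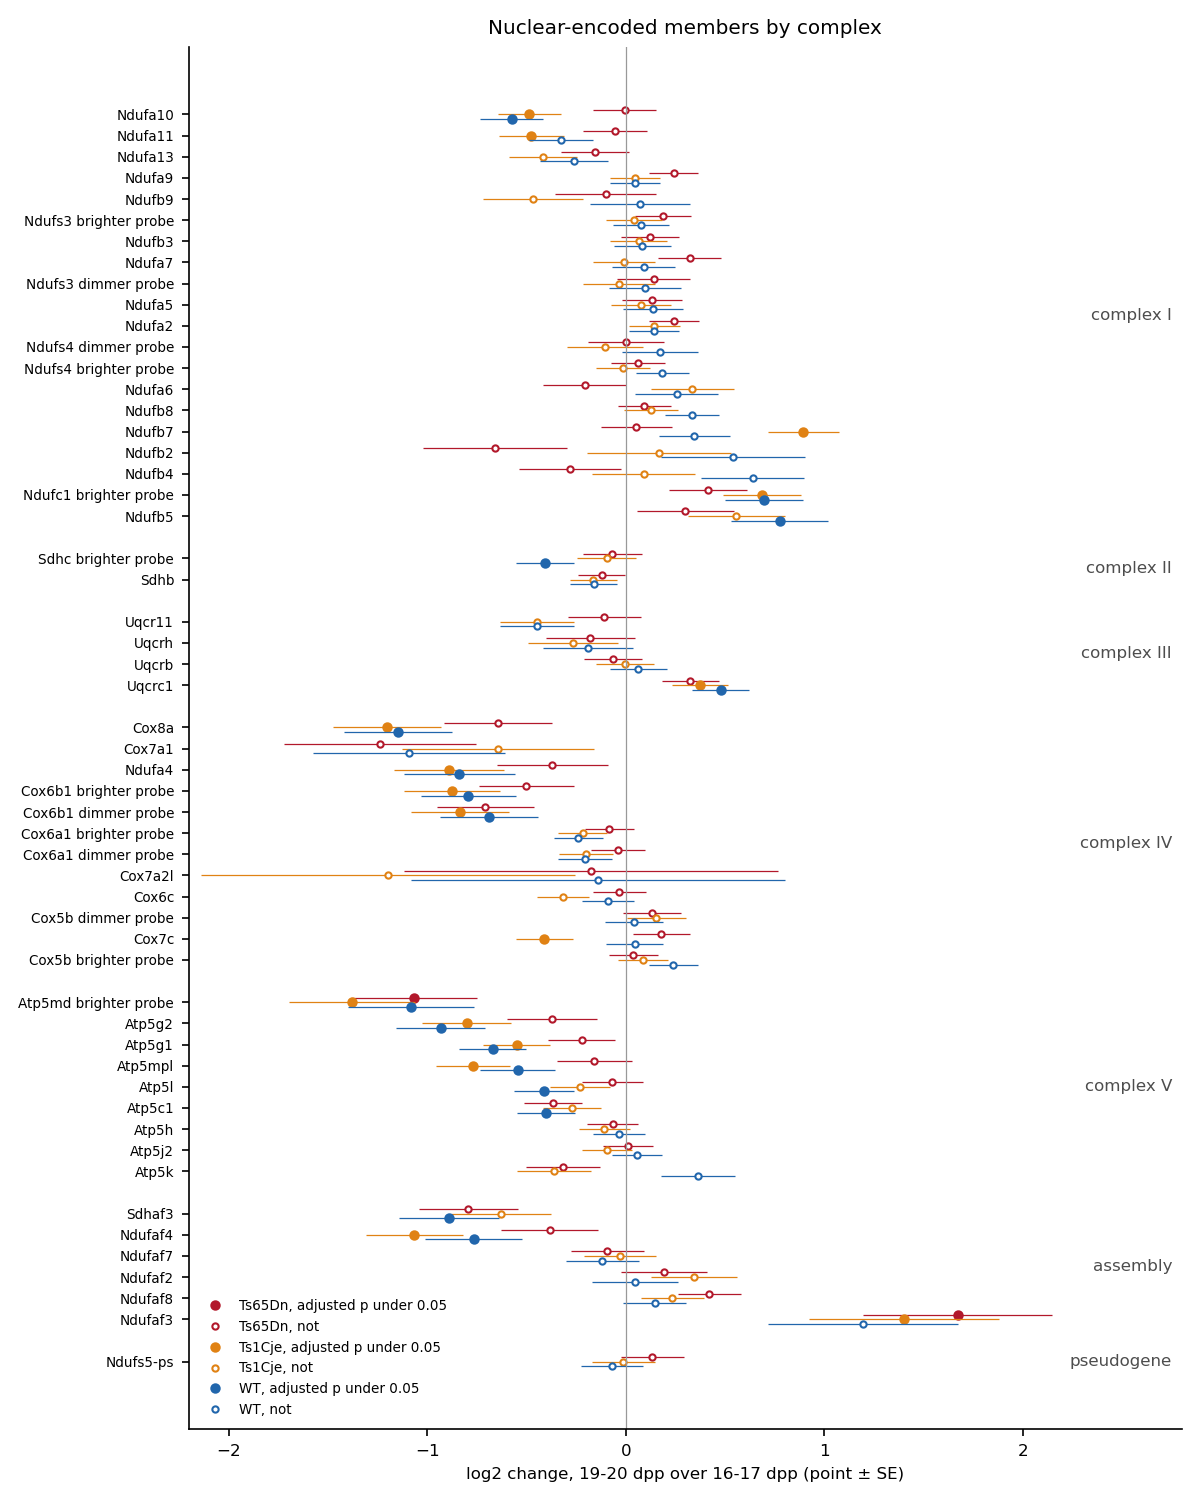
Change with age (19-20 dpp minus 16-17 dpp, log2) of the nuclear-encoded members by complex, in Ts65Dn, Ts1Cje and WT; filled points passed limma's test at an adjusted p under 0.05 and open points did not. In WT the 9 ATP synthase probes had a median of -0.41 and the 20 complex I probes one of 0.14, beside -0.23 over all tested probes.

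The age counts leaned on single arrays and on the scaling, and so did those of all 21337 tested probes. In WT 9964 of these passed, against 7075 under median scaling and 5331 without WT 19-20 dpp replicate 1. In Ts1Cje 9672 passed, against 8410 under median scaling, 6428 without Ts1Cje 19-20 dpp replicate 1 and 3582 with only the Ts1Cje arrays. In Ts65Dn 1859 passed, against 5882 with only the Ts65Dn arrays and 4620 without Ts1Cje 19-20 dpp replicate 1. The member counts follow. In WT 23 of the 66 tested probes passed, against 10 under median scaling between arrays, 10 or 11 when replicate 2 or 3 of WT 16-17 dpp was left out and 8 when replicate 1 of WT 19-20 dpp was; in Ts1Cje 21 passed, against 12 under median scaling, 1 with only the Ts1Cje arrays in the fit, 13 without Ts1Cje 16-17 dpp replicate 2 and 10 without replicate 1 of Ts1Cje at 19-20 dpp. Calls that passed whichever single array was left out were 7 of 23 in WT (mt-ND2, mt-ND4L, mt-ND5, Ndufc1, Atp5g1, Cox8a and Atp5g2), 9 of 21 in Ts1Cje (mt-ND3, mt-ND4L, mt-ND5, the brighter Cox6b1 probe, Ndufaf4, Cox8a, Atp5md, Ndufb7 and Atp5mpl) and 0 of 2 in Ts65Dn. The count in Ts65Dn was 2: it was 0 without any one Ts65Dn array of either age, any one WT array at 19-20 dpp or Ts1Cje 19-20 dpp replicate 2, 1 without WT 16-17 dpp replicate 2 or 3 or Ts1Cje 16-17 dpp replicate 3, 6 without Ts1Cje 19-20 dpp replicate 1, and 7 with only the Ts65Dn arrays in the fit. The genotypes' age changes were also set against each other: 0 members and 0 of all tested probes passed the interaction of age with Ts65Dn (limma, with 8 members and 3083 of all probes at an unadjusted p under 0.05), or that with Ts1Cje (605 of all probes). The 0 of all tested probes for Ts65Dn depended on the setting. It stayed 0 under median scaling, without background correction and with a block of 6 consecutive array numbers. It was 261 with the replicate block, 274 with only the groups compared, 485 without Ts1Cje 19-20 dpp replicate 1 and 5226 with array weights. mt-ND5 had the largest mitochondrial-encoded interaction with Ts65Dn, at 0.85 (SE 0.27, adjusted p = 0.205). A smaller change with age in Ts65Dn than in WT was therefore not shown by the test of the difference.

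Ts65Dn germ cells at 19-20 dpp held more mt-ND5, mt-ND4L and Atp5g2 signal than WT germ cells of the same age. These were 2 of 12 mitochondrial-encoded and 1 of 54 nuclear-encoded probes, and 4.81% of all tested probes passed in this comparison (1.8% higher and 3.01% lower). mt-ND5 averaged 14.03 ± 0.18 in Ts65Dn and 13.18 ± 0.08 in WT (SD, n = 3 each), a difference of 0.85 on the log2 scale or 1.80-fold (SE 0.19, limma adjusted p = 0.0307). mt-ND4L averaged 11.29 ± 0.07 in Ts65Dn and 10.51 ± 0.33 in WT, a difference of 0.79 or 1.73-fold (SE 0.21, adjusted p = 0.0461). Atp5g2 averaged 12.45 ± 0.32 in Ts65Dn and 11.57 ± 0.08 in WT, a difference of 0.88 or 1.84-fold (SE 0.23, adjusted p = 0.0421). The array values are those given above with age, and in all 3 every Ts65Dn array lay above every WT array; the groups did not overlap for 45.0% of all tested probes.

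All 12 mitochondrial-encoded differences between Ts65Dn and WT at 19-20 dpp lay above 0, between 0.06 and 0.85, with a median of 0.34 beside 0.11 over all tested probes. After mt-ND5 and mt-ND4L came mt-COXII, which read 15.24, 15.25 and 15.25 in Ts65Dn, against 14.75, 14.71 and 14.74 in WT; its difference of 0.51 did not pass (SE 0.17, limma adjusted p = 0.0794). mt-ND3 differed by 0.47, mt-ND2 by 0.40 and mt-ATP8 by 0.39, and none of them passed (adjusted p of 0.216, 0.153 and 0.0973). The smallest differences were those of bright probes: mt-COXI 0.06, mt-ND4 0.07 and mt-CytB 0.07. The 54 nuclear-encoded members were split, with 31 above and 23 below 0 and a median of 0.03; the median was 0.30 for the ATP synthase, 0.16 for complex IV and -0.04 for complex I.

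The labels give only sample numbers, so a pairing of Ts65Dn and WT arrays by replicate number was inferred from these data. Correlations of same-numbered arrays lay between 0.18 and 0.28 at 19-20 dpp, but between -0.30 and 0.26 at 16-17 dpp. With the replicate number as a block 10 members passed, beside 5076 of all 21337 tested probes, against 1027 without the block. mt-ND5, mt-ND4L and Atp5g2 passed again (limma adjusted p = 0.00931, 0.0180 and 0.00457). mt-COXII (0.51), Cox8a (0.65), Ndufa4 (0.63), Atp5g1 (0.53) and Atp5mpl (0.52) also passed as higher in Ts65Dn, and Ndufb7 (-0.50) and Ndufb4 (-0.46), accessory subunits of complex I, as lower. The runs of array numbers gave differences within runs 1, 2 and 3 of 0.73, 0.98 and 0.84 for mt-ND5, 0.91, 0.47 and 0.99 for mt-ND4L and 0.58, 1.15 and 0.91 for Atp5g2. The count of 3 was 0 without any one of the 3 WT 19-20 dpp arrays or without Ts65Dn 19-20 dpp replicate 2 or 3. It was 1 without any one of the 3 Ts65Dn 16-17 dpp arrays, WT 16-17 dpp replicate 3 or Ts1Cje 16-17 dpp replicate 3. It was 12 without Ts1Cje 19-20 dpp replicate 1, 28 with array weights and 1 under median scaling. Calls over all tested probes moved too. They were 4264 without Ts1Cje 19-20 dpp replicate 1, 10476 with array weights, 565 under median scaling and 1 without WT 19-20 dpp replicate 1.

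Markers of cell stage moved with this comparison. Beside the lower round spermatid sums given above, the 3 tested markers of pachytene to diplotene spermatocytes (Aurkc, Tcte2 and Zpbp) summed to between 7446 and 16793 units on the Ts65Dn arrays and between 24226 and 33179 on the WT arrays at 19-20 dpp. The 4 tested spermatogonial markers summed to between 2990 and 3910 units in Ts65Dn and between 2118 and 2510 in WT, and the 4 of Sertoli cells to between 66143 and 71888 in Ts65Dn and between 53049 and 65598 in WT. By limma's test 1 of 9 round spermatid probes and 1 of 3 pachytene to diplotene probes were lower in Ts65Dn, 1 of 5 meiotic prophase probes (median 0.52) and 1 of 2 endothelial probes (median 0.84) were higher, and 0 of the spermatogonial, Sertoli, Leydig, peritubular, macrophage and red cell probes passed. The 5 meiotic prophase probes read only Smc1a, Smc3 and Syce2, 3 of the 15 genes listed. They summed to between 3888 and 4960 units in Ts65Dn and between 2448 and 3162 in WT. On the WT arrays at 19-20 dpp 3 of the 5 were above background on none, so they read that stage poorly. The part of these marker shifts in the differences of mt-ND5, mt-ND4L and Atp5g2 was not tested.

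**Figure D4:**
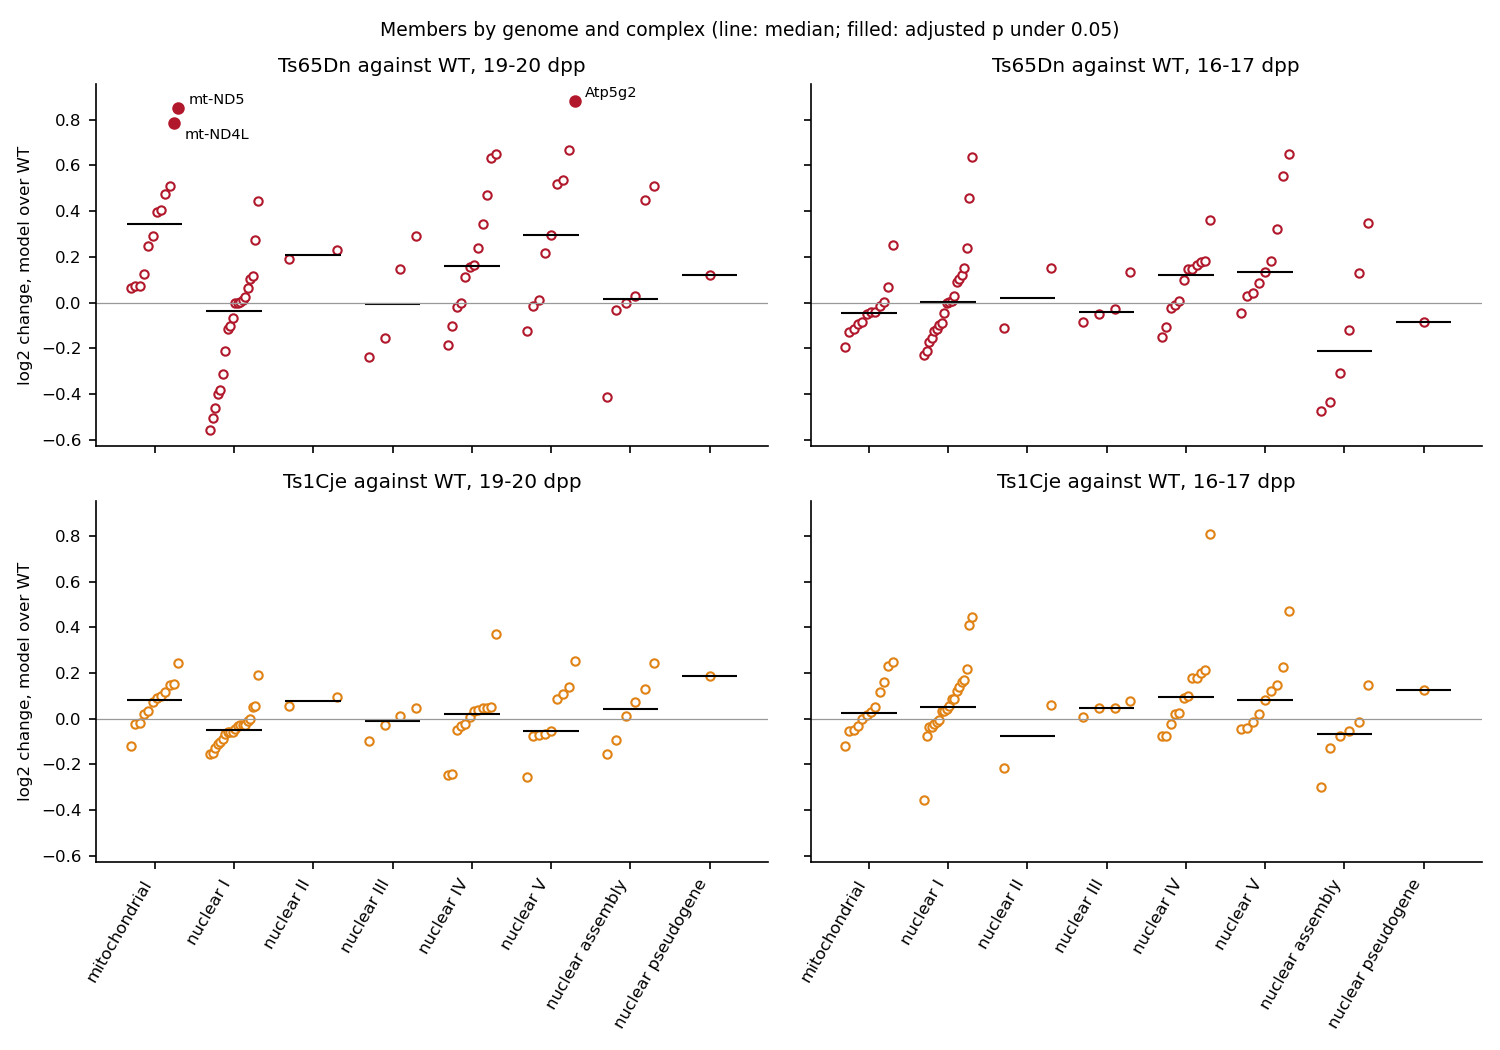
Differences from WT (log2) of the mitochondrial-encoded and nuclear-encoded members, for Ts65Dn and Ts1Cje at each age; filled points passed limma's test at an adjusted p under 0.05. At 19-20 dpp all 12 mitochondrial-encoded members of Ts65Dn lay above 0, and mt-ND5, mt-ND4L and Atp5g2 passed.

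At 16-17 dpp 0 members differed between Ts65Dn and WT by limma's test, with 0 mitochondrial-encoded and 2 nuclear-encoded members at an unadjusted p under 0.05; 0.0187% of all tested probes passed. mt-ND5 averaged 13.96 ± 0.09 in Ts65Dn and 13.96 ± 0.16 in WT, and mt-ND4L 11.57 ± 0.24 in Ts65Dn and 11.32 ± 0.15 in WT. Atp5g2 averaged 12.82 ± 0.18 in Ts65Dn and 12.50 ± 0.28 in WT. The mitochondrial-encoded median was -0.05, and 0.12 under median scaling, which moved the median of all tested probes by like amounts, to 0.14 from -0.01 at 16-17 dpp and to 0.26 from 0.11 at 19-20 dpp. Relative to all tested probes, the mitochondrial-encoded median of Ts65Dn against WT at 19-20 dpp was 0.24, and 0.15 under median scaling.

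Between Ts1Cje and WT no member passed the test at either age, with 0 of 21337 probes past limma's test at each age and 427 and 635 at an unadjusted p under 0.05 at 16-17 and 19-20 dpp. The 12 mitochondrial-encoded differences lay between -0.12 and 0.25 at both ages. At 19-20 dpp mt-ND5 averaged 13.33 ± 0.42 in Ts1Cje and 13.18 ± 0.08 in WT, mt-ND4L 10.39 ± 0.40 in Ts1Cje and 10.51 ± 0.33 in WT, and Atp5g2 11.82 ± 0.39 in Ts1Cje and 11.57 ± 0.08 in WT. In Ts1Cje replicate 1 was the lowest of the 3 for mt-ND5, mt-ND4L, mt-ND2 and Atp5g2. It stood apart for mt-ND5, mt-ND2 and Atp5g2, while for mt-ND4L it lay near replicate 3 (10.09 and 10.23) and replicate 2 stood apart at 10.84.

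The balance between the genomes was read on each array as the median deviation of the mitochondrial-encoded probes minus that of the nuclear-encoded probes, each probe taken from its mean over the WT 16-17 dpp arrays. At 19-20 dpp it was -0.04, 0.06 and -0.06 in Ts65Dn, -0.71, -0.11 and -0.12 in Ts1Cje, and -0.27, -0.35 and -0.38 in WT. At 16-17 dpp it was -0.13, -0.12 and -0.04 in Ts65Dn, 0.09, 0.09 and -0.14 in Ts1Cje, and -0.03, 0.10 and -0.01 in WT. Every WT array at 19-20 dpp thus lay below every Ts65Dn array of that age and every WT array at 16-17 dpp, and Ts1Cje replicate 1 at 19-20 dpp lay below all others. In terms of group changes, the mitochondrial-encoded median minus the nuclear-encoded median was 0.12 with age in Ts65Dn, -0.25 in Ts1Cje and -0.36 in WT. Without Ts1Cje 19-20 dpp replicate 1 the Ts1Cje value was -0.072, and under array weights it changed sign (value below). Relative to all tested probes, the WT medians were -0.12 mitochondrial-encoded and 0.24 nuclear-encoded, and -0.006 and 0.33 under median scaling. Those in Ts1Cje were -0.15 and 0.10, and -0.05 and 0.14 under median scaling. In WT the larger part of the gap was thus that of the nuclear-encoded members.

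**Figure D5:**
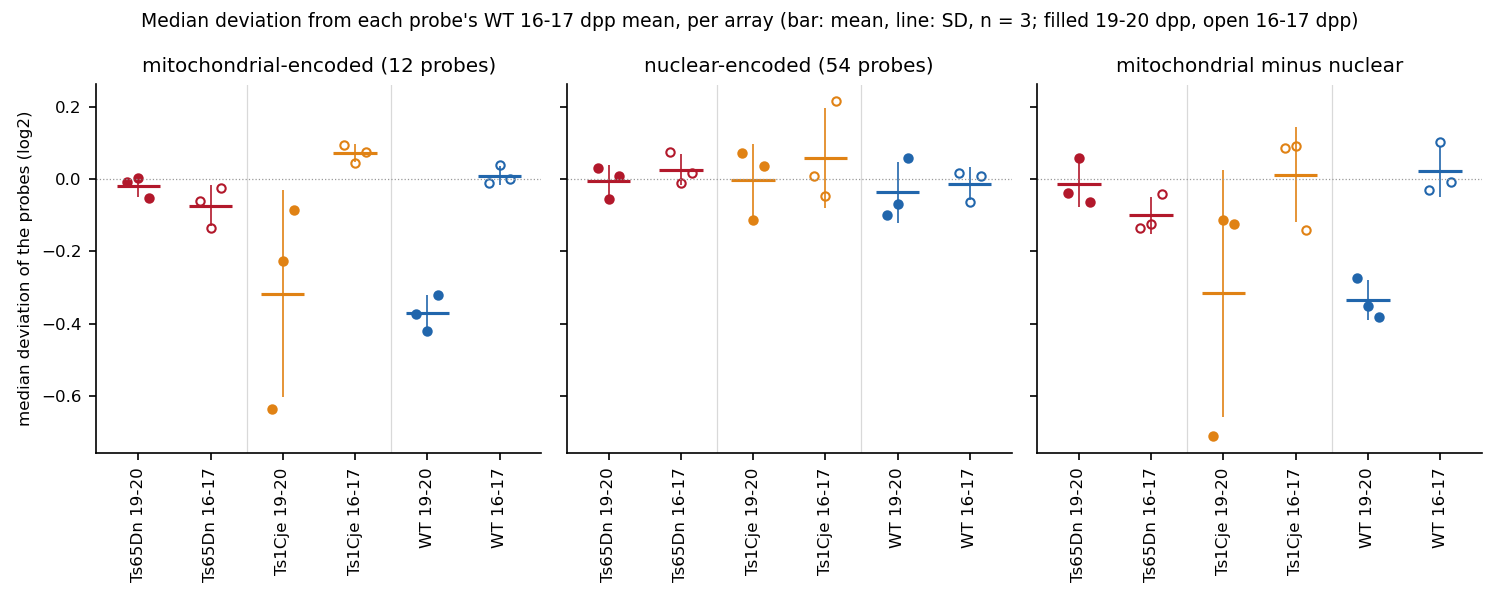
Median deviation (log2) of the mitochondrial-encoded probes, of the nuclear-encoded probes and of their difference on each array, from each probe's mean over the WT 16-17 dpp arrays; bars are group means, lines SDs (n = 3), filled points 19-20 dpp and open points 16-17 dpp. The difference lay between -0.27 and -0.38 on the WT arrays at 19-20 dpp and between -0.06 and 0.06 on the Ts65Dn arrays of that age.

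Genes around the chain are given beside all tested probes, of which 18.5% rose and 28.2% fell with age in WT. In Ts1Cje 18% of all tested probes rose and 27.3% fell, and in Ts65Dn 6.17% rose and 2.54% fell. The lists are short, and their counts were not tested against these shares. List medians are given beside the median of all tested probes in WT, -0.23. Of 9 probes for other chain subunits and electron carriers, 5 fell in WT, among them Cycs (-1.10), the cytochrome c of body cells, Coq10b (-0.88), a coenzyme Q binding protein, Etfa (-1.03), a flavoprotein that feeds electrons to the chain, and Cyc1 (-0.78), the cytochrome c1 of complex III; 3 fell in Ts1Cje and 2 in Ts65Dn, and the WT median was -0.78. Of 13 probes for assembly factors 2 rose and 4 fell in WT (Ecsit -0.84, Ttc19 -0.80, Cox16 0.80, Cox15 -0.78), 1 rose and 5 fell in Ts1Cje, and 0 passed in Ts65Dn (WT median -0.10). Of 34 mitochondrial ribosome probes 2 rose and 10 fell in WT (Mrpl30 -1.28, Mrps24 -0.80, Mrps17 -0.75, Mrpl47 0.74), 3 rose and 8 fell in Ts1Cje, and 1 fell in Ts65Dn (WT median -0.12). Mrpl30 also differed between the genotypes at 19-20 dpp, with means of 11.80 in Ts65Dn and 11.06 in WT (difference 0.74, SE 0.20, limma adjusted p = 0.0496).

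Both partners of GABP, the ETS factor named above, fell in WT: Gabpb1 by 0.84 and Gabpa by 0.76, with Ppargc1b, a coactivator of mitochondrial genes, by 0.75. Gabpa, which lies in the segment triplicated in Ts65Dn and outside that of Ts1Cje, averaged 11.29 in Ts65Dn and 10.30 in WT at 19-20 dpp, a difference of 1.00 (SE 0.19, limma adjusted p = 0.0182). At 16-17 dpp it averaged 11.64 in Ts65Dn and 11.06 in WT (difference 0.58, adjusted p = 0.484), and Ts1Cje differed from WT by -0.02 at 16-17 dpp and -0.11 at 19-20 dpp. Among 11 probes for copying, transcription and handling of mitochondrial DNA and RNA, Ssbp1, which binds single-stranded mitochondrial DNA, was higher in Ts65Dn than in WT at 19-20 dpp on its brighter probe, with means of 9.70 in Ts65Dn and 8.88 in WT (difference 0.82, SE 0.21, adjusted p = 0.0412), and its dimmer probe differed by 0.02. With age in WT, 1 of the 11 rose (Mterf4 0.40) and 3 fell (Ssbp1 -0.85, Fastkd5 -0.62, Supv3l1 -0.61).

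Fuel supply genes moved in both directions, and their counts are read beside the same shares of all tested probes. Of 18 glycolysis probes 6 rose and 8 fell in WT, with the largest rises for Tpi1 (2.23), triose phosphate isomerase, and Ldha (2.06), a lactate dehydrogenase subunit; 5 rose and 4 fell in Ts1Cje, and 2 rose and 2 fell in Ts65Dn (WT median -0.58). Of 7 probes for the citric acid cycle and pyruvate dehydrogenase 2 fell in WT, Mdh2 (-1.45) and Suclg2 (-1.28), and 2 rose, Idh3b (0.47) and Dlst (0.45), with a list median of -0.085. Of 3 probes for nucleotide carriers and outer membrane channels 2 fell in WT, Vdac1 (-1.08) and Slc25a5 (-1.02). The germ cell isoforms Cyct, Pdha2, Pgk2, Ldhc, Gapdhs and Slc25a31 were not analysed here, nor were Atp5j and Atp5o, the ATP synthase genes of the triplicated segments.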

How the data were processed

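Total RNA of enriched male germ cells was labelled with biotin and read on Illumina MouseWG-6 v1.1 BeadArrays, 18 arrays in 6 groups of 3. Per the file headers, the deposited files give an average signal intensity for each probe, neither normalised nor background-subtracted in its values, and a detection p-value for each probe. BeadStudio is named per the submitters' processing notes, with no version given in the sources used here. The deposited series table of 46643 probes holds log2 intensities, quantile-normalised in their values, and served as an alternative only.

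From the intensities, limma 3.58.1 (R 4.3.3, statmod 1.5.0) corrected background (nec, normexp with offset 16), normalised by quantiles and took log2. The 361 control probes were left out, and 21337 probes with a detection p under 0.05 on at least 3 arrays entered 1 fit of 6 groups (lmFit, eBayes), with Benjamini-Hochberg adjustment over all of them. Of 11857 probes named by a padded Entrez number, 9796 were matched to a symbol and 5468 of those were tested; the match used RefSeq gene tables. The fit was tested on simulated data. The members and gene lists were chosen with earlier results of these data known. Genes named are every mitochondrial-encoded probe, every member called between a model and WT, the 6 largest called rises and falls of each age comparison, isoforms of restricted tissues and at most 4 called genes of each other list; names beyond these were chosen after their values were seen.

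Same-numbered arrays of Ts65Dn and WT at 19-20 dpp deviated together (correlations of their deviations from the group means between 0.18 and 0.28). So did those of Ts1Cje and WT at 19-20 dpp (0.23 to 0.58), and in the other comparisons at least 1 pair was at or under 0.1. A pairing by replicate number was inferred from these correlations alone, since the labels give only sample numbers. Arrays of Ts65Dn and WT at 19-20 dpp in the same run of 6 array numbers gave correlations between -0.26 and 0.18. Alternatives were median scaling, no background correction, the series table, other filters, the replicate block, array weights, only the groups compared, 1 probe per gene, each array left out and, chosen after seeing the data, a block of 6 consecutive array numbers and medians without Cox7a2l. Probe sequences were not used here, so binding to pseudogenes, paralogs or nuclear copies of mitochondrial genes was not tested. Summaries and figures were made in Python 3.11.15 (matplotlib 3.10.9, scipy 1.17.1, pandas 2.3.3, numpy 2.4.6).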

Additional observations from a re-analysis of the deposited data

How the results depend on the processing

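No called member turned its direction under any alternative run, but some medians did. The mitochondrial-encoded minus nuclear-encoded median with age in Ts1Cje went from -0.25 to 0.013 under array weights. Nearer to 0, that for Ts1Cje against WT at 16-17 dpp (-0.025) was 0.047 without Ts1Cje 16-17 dpp replicate 3. The mitochondrial-encoded median of Ts65Dn against WT at 16-17 dpp (-0.046) was 0.12 under median scaling. The cause of each change below was not tested. Of 66 probes tested, 23 were called with age in WT, 21 in Ts1Cje and 2 in Ts65Dn, 3 between Ts65Dn and WT at 19-20 dpp, and 0 in the other comparisons. Median scaling between arrays gave 10, 12, 1 and 1 for the 4 nonzero counts in that order, and moved the share of all calls that were higher from 39.7% to 53.5% with age in WT, from 70.8% to 86.4% with age in Ts65Dn and from 37.4% to 48.1% between Ts65Dn and WT at 19-20 dpp. With array weights the counts were 16 with age in Ts65Dn, 28 between Ts65Dn and WT at 19-20 dpp and 13 for the interaction of age with Ts65Dn, and the mitochondrial-encoded minus nuclear-encoded median was 0.013 with age in Ts1Cje, against -0.25, and 0.30 for the interaction of age with Ts1Cje, against 0.13. Keeping all non-control probes gave 0 with age in Ts65Dn and 1 between Ts65Dn and WT at 19-20 dpp, and only probes detected on all 18 arrays gave 1 with age in Ts65Dn. Fits of only the groups compared gave 1 with age in Ts1Cje and 7 with age in Ts65Dn. The replicate block gave 7 with age in Ts65Dn and 10 between Ts65Dn and WT at 19-20 dpp, left the medians as they were and moved no other count by over 1.5 times. By the labels, the arrays of a block share only a sample number. The block of 6 consecutive array numbers gave 6 with age in Ts65Dn. Calls over all tested probes with age in Ts65Dn and between Ts65Dn and WT at 19-20 dpp were 1859 and 1027 in the main fit. They were 9432 and 10476 with array weights, and 5413 and 5076 with the replicate block. Fits of only the groups compared called 3582 with age in Ts1Cje, against 9672, and 5882 with age in Ts65Dn.

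With each array left out in turn, the counts ranged from 8 to 27 with age in WT, 10 to 23 in Ts1Cje, 0 to 6 in Ts65Dn, 0 to 12 between Ts65Dn and WT at 19-20 dpp and 0 to 1 for the interaction of age with Ts65Dn, and were 0 elsewhere. The mitochondrial-encoded minus nuclear-encoded medians ranged from -0.37 to -0.32 with age in WT, from -0.30 to -0.072 in Ts1Cje and from 0.03 to 0.16 in Ts65Dn; from -0.13 to -0.05 and from 0.19 to 0.35 for Ts65Dn against WT at 16-17 and 19-20 dpp; from -0.08 to 0.05 and from 0.03 to 0.21 for Ts1Cje against WT; and from 0.32 to 0.45 and from 0.01 to 0.21 for the interactions with Ts65Dn and Ts1Cje. mt-ND5 in Ts65Dn against WT at 19-20 dpp missed the threshold in 6 of 28 alternatives (adjusted p up to 0.170), mt-ND4L in 17 (up to 0.200) and Atp5g2 in 11 (up to 0.209). With age in WT, mt-ND4L, Cox8a, Atp5g2 and Ndufc1 passed in all 28. With 3 arrays in each group, their number limits the precision of every value, and signals near background (mt-ND3, Atp5k, Atp5md) and near the top of the scale (mt-COXI, mt-ND4, mt-CytB) are the least sure.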

Other observations

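Cox7a2l, a relative of the Cox7a subunits that helps join complexes III and IV, had arrays at separate levels within groups. Its log2 signals in Ts65Dn were 12.51, 10.15 and 12.43 at 19-20 dpp and 12.57, 10.48 and 12.55 at 16-17 dpp. In Ts1Cje they were 12.50, 9.94 and 12.46 at 19-20 dpp and 12.57, 13.28 and 12.64 at 16-17 dpp. In WT they were 12.35, 10.23 and 13.06 at 19-20 dpp and 12.38, 10.41 and 13.28 at 16-17 dpp. The low level appeared on replicate 2 of 5 groups, and Ts1Cje replicate 2 at 16-17 dpp read high instead. It was chosen after its values were seen. It is 1 of the 12 complex IV probes and of the 54 nuclear-encoded probes; without it the complex IV median with age in Ts1Cje was -0.41, against -0.53, and the nuclear-encoded median in WT was 0.04, against 0.00.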
